A study of Mus musculus with 6 samples.

Results

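The 37 genes of the mouse mitochondrial genome were followed in AE9a leukemia cells with and without Ddit4. They were taken as all rows of the deposited count table whose symbol begins with mt-, which gave 13 mRNAs, 2 rRNAs and 22 tRNAs out of 55421 genes. The study made leukemias by bringing AML1-ETO9a (AE9a), a truncated form of the AML1-ETO fusion protein of acute myeloid leukemia, into blood stem and progenitor cells with a retrovirus and transplanting them. The donor cells were wild type for Ddit4, an inhibitor of mTORC1 signaling (AE9a-Ddit4+/+, 3 libraries), or lacked it (AE9a-Ddit4-/-, 3 libraries). AE9a is thus shared by both groups, and the strain was C57BL/6. The cells were leukemia cells of the bone marrow, kept in IMDM medium with serum. No ages, sampling times or drug treatments were given that set the groups apart. The cells were obtained from transplanted mice, with n given as 3 in each group. In the study, leukemia arose later from AE9a-Ddit4-/- than from AE9a-Ddit4+/+ cells, so time from transplantation to sampling may differ between the groups. Whether the mice of a group carried the same primary leukemia was not stated. In the study's primary transplantation, fewer AE9a-Ddit4-/- mice developed leukemia than there are knockout libraries here, so knockout libraries may share a primary leukemia. The p values therefore measure the spread between these 3 libraries.

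The mitochondrial genome is a small circle without introns. Its mRNAs encode core subunits of respiratory chain complexes I, III and IV and of the ATP synthase, its rRNAs form the mitochondrial ribosome, and its tRNAs serve the translation of these mRNAs. Each strand is read from its own promoter into a long precursor, and the tRNAs that lie between the other genes mark the places where it is cut. The remaining subunits of these complexes, all of complex II, and every protein that transcribes, cuts and stabilises mitochondrial RNA are encoded in the nucleus.

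On GRCm38, the build named in the sample labels, the 37 genes ran from chrM:1-68 (mt-Tf, the tRNA for phenylalanine) to chrM:15356-15422 (mt-Tp, the tRNA for proline). The transcript with the sense of most genes, here called the heavy-strand transcript, carried 12 mRNAs, both rRNAs and 14 tRNAs. The opposite, light-strand transcript carried mt-Nd6 and 8 tRNAs. The genes abut or overlap, which is shown because it limits what a count per gene can resolve. Bases that belong to both genes are in capitals in the first 3 sequences, and in the fourth the capitals mark mt-Tl1, the tRNA for leucine that sits between the large rRNA and mt-Nd1. All are given on the plus strand, at chrM:7907-7989, chrM:10147-10193, chrM:13532-13585 and chrM:2656-2770.

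mt-Atp8 and mt-Atp6: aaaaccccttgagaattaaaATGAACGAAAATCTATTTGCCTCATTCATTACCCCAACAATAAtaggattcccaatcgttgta
mt-Nd4l and mt-Nd4: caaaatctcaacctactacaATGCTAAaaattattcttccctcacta
mt-Nd5 and mt-Nd6: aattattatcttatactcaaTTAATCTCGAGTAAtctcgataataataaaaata
mt-Rnr2, mt-Tl1 and mt-Nd1: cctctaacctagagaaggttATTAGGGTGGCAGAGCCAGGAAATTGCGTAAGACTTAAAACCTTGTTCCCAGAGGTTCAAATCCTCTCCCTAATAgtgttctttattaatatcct

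The overlap of mt-Atp8 and mt-Atp6 was 43 bases, that of mt-Nd4l and mt-Nd4 was 7 bases, and that of mt-Nd5 and mt-Nd6, which lie on opposite strands, was 14 bases. Whether the counting used strand is not given in the sources used here, so reads from a gene and from the transcript opposite to it cannot be told apart. The tRNAs were 59 to 75 bases long, shorter than the 150 bp reads, so a read that covers a whole tRNA also covers its neighbours unless the RNA had been cut.

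Mitochondrial transcripts took a larger share of the reads in the knockout libraries. In the wild-type libraries 5.58%, 7.90% and 5.03% of all counts fell on the 37 genes, and in the knockout libraries 11.3%, 16.4% and 12.2%. The highest wild-type library lay below the lowest knockout library. The ratio of the means was 2.16 (6.17% ± 1.52 against 13.3% ± 2.75, SD, n = 3 each; two-sided exact permutation test p = 0.1, the smallest p that 3 against 3 libraries allow). Split by class, the mRNAs took 6.02% ± 1.48 against 12.7% ± 2.70, the rRNAs 0.146% ± 0.0425 against 0.532% ± 0.198, and the tRNAs 0.00643% ± 0.00192 against 0.0469% ± 0.0140. The ratio of the means was thus 2.11 for the mRNAs, 3.66 for the rRNAs and 7.29 for the tRNAs, with no overlap between the groups in any class. In bulk libraries, fewer cells with little mitochondrial RNA, less nuclear RNA per cell and more mitochondrial RNA per cell cannot be told apart.

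Library totals ranged from 62141558 to 72717681 counts, and counts at or below 12 in a library (0.163 to 0.197 CPM, counts scaled to a common library total of 1000000) were taken as not detectable, because low values pile up at multiples of 4. RNA of Ddit4 itself (ENSMUSG00000020108), the targeted gene, was at 227, 161 and 341 CPM in wild type and at 84.9, 77.6 and 85.8 CPM in knockout. Its log2 fold change was -1.56 ± 0.28 (SE), with an adjusted p = 0.00635 by edgeR, so the RNA was lower but still detected. By western blot, the study found DDIT4 protein to be absent from AE9a-Ddit4-/- leukemia cells, so the remaining RNA is not a measure of protein. Which part of the gene the allele lacks was not known. The Y-linked Ddx3y was at 0.0589 to 0.0773 CPM in the wild-type libraries and at 88.2 to 125 CPM in the knockout libraries, so sex and genotype cannot be told apart. The libraries also differed in marker genes. All 4 genes taken as markers of leukemic progenitors (Kit, Cd34, Ptprc and Runx1t1) were present in every library and higher in the knockout libraries. Their sum was 95.6 to 223 against 1456 to 1886 CPM, and most of it in wild type was Ptprc (91.8, 170 and 60.6 CPM). Of 9 erythroid markers 8 were lower (5281 to 12206 against 120 to 633 CPM). Of 8 neutrophil markers 4 were lower and none higher (6815 to 11065 against 1527 to 4717 CPM). Higher too were 5 of the 6 T and NK markers tested (10.1 to 47.6 against 67.4 to 94.1 CPM), 5 of 6 B cell markers (1.05 to 4.68 against 62.6 to 124 CPM), 3 of 6 macrophage markers (42.6 to 90.9 against 132 to 306 CPM) and 4 of 7 stromal and endothelial markers (6.25 to 9.90 against 158 to 191 CPM). Most of the T and NK sum was Nkg7, which did not pass. It was at 47.1, 9.31 and 9.77 CPM in the wild-type libraries and 38.0, 58.6 and 61.0 CPM in the knockout libraries. Most of the stromal and endothelial sum in the knockout libraries was Pecam1 (123, 143 and 144 CPM). Cdh5, Kdr and Cxcl12 were also higher, while Col1a1, Col1a2 and Lepr did not pass, with overlapping groups. Ms4a1 and Ncr1 were at 0 in every wild-type library. The part of these cell types and of sex in the mitochondrial values was not tested.

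All 13 mitochondrial mRNAs were more abundant in each knockout library than in any wild-type library, and 11 of them passed the test (edgeR quasi-likelihood test over 18375 genes, Benjamini-Hochberg adjusted p below 0.05). No mitochondrial gene that was tested passed in the lower direction. The background is high in this comparison: 19.4% of all genes tested were called higher, 10.7% lower (30.1% in either direction), and 27.9% had knockout values that lay above all wild-type values. The median log2 fold change (knockout over wild type) was 1.19 over the mRNAs, with a range of 0.90 to 1.43, beside 0.04 over all genes tested. The count of 11 depended on single libraries. It was 6 without knockout replicate 2, 5 without wild-type replicate 1 and 4 without wild-type replicate 3, and 8 to 11 when any of the others was left out.

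Complex I takes electrons from NADH, and 7 of its subunits are encoded in mitochondrial DNA. mt-Nd1 (ENSMUSG00000064341, chrM:2751-3707) was at 5378, 7432 and 5234 CPM in the wild-type libraries and at 13353, 22632 and 12625 CPM in the knockout libraries. Its lowest knockout value was well above its highest wild-type value (log2 fold change 1.43 ± 0.29, adjusted p = 0.00935), the largest change among the mRNAs. mt-Nd2 was at 2492, 2811 and 1627 CPM against 4064, 9036 and 3946 CPM (1.30 ± 0.38, adjusted p = 0.0376), with knockout replicate 2 far above the other two. mt-Nd4 was at 3890, 4759 and 2841 CPM against 6533, 11946 and 8015 CPM (1.21 ± 0.29, adjusted p = 0.0197). mt-Nd4l, the short gene whose end overlaps the start of mt-Nd4, moved by 1.14 ± 0.31 (447, 518 and 335 against 642, 1345 and 868 CPM; adjusted p = 0.0285). The groups did not overlap for either gene of this overlapping pair.

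mt-Nd5, a proton-pumping subunit at the far end of the complex, was at 2721, 3114 and 1945 CPM against 4903, 8801 and 6738 CPM (log2 fold change 1.39 ± 0.28, adjusted p = 0.00945). mt-Nd6, the only mRNA of the light-strand transcript, was at 618, 562 and 448 CPM against 946, 1874 and 1392 CPM. It rose by 1.37 ± 0.28 (adjusted p = 0.00977), a value within the range of the heavy-strand mRNAs. mt-Nd3, the least abundant mRNA, missed the threshold, with 176, 159 and 135 CPM against 230, 474 and 221 CPM (0.98 ± 0.32, adjusted p = 0.0554). It passed with DESeq2, with counts divided by 4 and with a stricter filter on low counts.

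Complex IV, cytochrome c oxidase, passes electrons to oxygen, and its catalytic subunits are mitochondrially encoded. mt-Co1 (ENSMUSG00000064351, chrM:5328-6872), which holds the oxygen-reducing site, was the most abundant mRNA, at 20304, 28947 and 18225 CPM against 41009, 57149 and 44926 CPM (log2 fold change 1.08 ± 0.25, adjusted p = 0.0146). mt-Co2, which receives electrons from cytochrome c, was at 3931, 4903 and 3396 CPM against 8236, 12430 and 7263 CPM (1.19 ± 0.26, adjusted p = 0.0133). mt-Co3 was at 3009, 3508 and 2492 CPM against 6549, 9475 and 6977 CPM and had the smallest adjusted p of the mRNAs (1.35 ± 0.23, adjusted p = 0.00462). For all 3 genes the knockout libraries lay above the wild-type libraries.

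The ATP synthase subunits mt-Atp8 and mt-Atp6 are read from overlapping frames of a shared message, as the first sequence above shows. mt-Atp6, part of its proton channel, was at 5384, 8019 and 5119 CPM against 10000 (9999.5), 16568 and 12142 CPM (log2 fold change 1.06 ± 0.27, adjusted p = 0.0233). mt-Atp8 was at 1315, 1876 and 1368 CPM against 2343, 4237 and 2854 CPM (1.05 ± 0.27, adjusted p = 0.0246). mt-Cytb, the cytochrome b of complex III and the only mitochondrial gene of that complex, had the smallest change of the mRNAs and did not pass, with 6043, 6666 and 4004 CPM against 6825, 15281 and 9031 CPM (0.90 ± 0.34, adjusted p = 0.0845). Its knockout replicate 1 lay just above the highest wild-type library, and it passed with DESeq2, by which all 13 mRNAs were called higher.

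**Figure D1:**
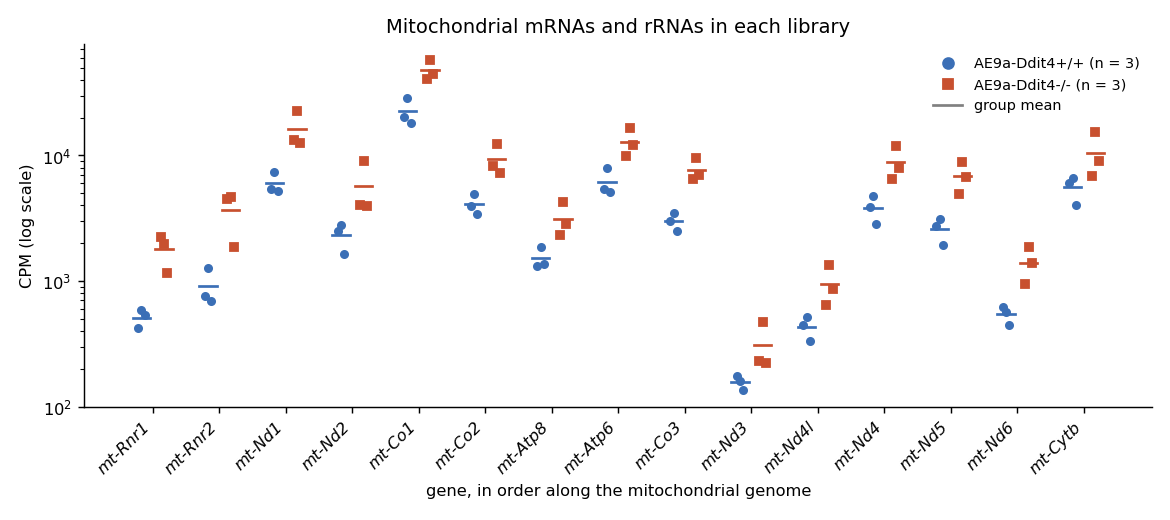
Level of the 13 mitochondrial mRNAs and 2 rRNAs in each of the 6 libraries, in CPM on a log axis, with the genes in their order along the mitochondrial genome; circles are AE9a-Ddit4+/+ libraries, squares AE9a-Ddit4-/- libraries and bars group means. In every one of these 15 genes the knockout libraries lie above the wild-type libraries, from mt-Nd3 (135 to 176 against 221 to 474 CPM) to mt-Co1 (18225 to 28947 against 41009 to 57149 CPM).

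The order of the mRNAs by level per length was nearly the same in both groups. On the scale of CPM per kb of gene, mt-Co1 was first (14558 ± 3680 in wild type, 30870 ± 5449 in knockout, mean ± SD, n = 3) and mt-Atp6 second (9066 ± 2354 and 18948 ± 4919) in all 6 libraries, while mt-Nd6 was 12th (1045 ± 167 and 2705 ± 894) and mt-Nd3 13th (450.2 ± 59.2 and 886 ± 412). Neighbours in between changed places from library to library. mt-Atp8 was 3rd in the wild-type libraries and 3rd to 5th in the knockout libraries, mt-Nd1 4th or 5th and then 3rd or 4th, and mt-Co2 4th or 5th in both, so the order among these 3 is within their spread. mt-Cytb and mt-Co3 held the 6th and 7th place, in the order mt-Cytb before mt-Co3 in the 3 wild-type libraries and in knockout replicate 2. mt-Nd4l lay above mt-Nd5 in the wild-type libraries and below it in the knockout libraries, by small margins (1459 ± 310 and 1422 ± 326 CPM per kb in wild type, 3205 ± 1208 and 3736 ± 1069 in knockout).

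As shares of the mRNA pool, 12 of the 13 genes had overlapping groups. mt-Co1 made up 36.4%, 39.5% and 38.6% of mitochondrial mRNA counts in the wild-type libraries and 38.8%, 33.4% and 38.4% in the knockout libraries. mt-Cytb made up 10.8%, 9.10% and 8.49% against 6.46%, 8.92% and 7.72%, with overlapping groups. Of the 13 mRNAs, only mt-Co3 had shares that did not overlap (5.40%, 4.79% and 5.28% against 6.20%, 5.53% and 5.96%), and among the complexes only the summed mRNAs of complex I (28.2%, 26.4% and 26.6% against 29.0%, 32.8% and 28.9%). Over the 20 shares and ratios compared, each of these had an exact permutation p = 0.1 and an adjusted p = 0.5, and the design allows no smaller raw p. mt-Nd6 per 100 counts of heavy-strand mRNA, a comparison of the transcripts of both strands, was 1.12, 0.772 and 0.959 against 0.904, 1.11 and 1.20 (ratio of means 1.13, exact permutation p = 0.5).

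Both rRNAs were higher in the knockout libraries. mt-Rnr1, the rRNA of the small mitochondrial ribosomal subunit, was at 419, 583 and 533 CPM against 2249, 1980.4 and 1164 CPM. The lowest knockout value exceeded the highest wild-type value (log2 fold change 1.81 ± 0.28, edgeR adjusted p = 0.00368). mt-Rnr2, the rRNA of the large subunit, was at 755, 1264 and 695 CPM against 4509, 4667 and 1871 CPM (2.03 ± 0.40, adjusted p = 0.00919). Both stayed past the threshold of 0.05 whichever library was left out.

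Against the mRNAs, the rRNAs did not separate the groups. There were 2.11, 2.52 and 2.60 rRNA counts per 100 mRNA counts in the wild-type libraries and 6.40, 3.88 and 2.59 in the knockout libraries (ratio of means 1.78, exact permutation p = 0.2). Knockout replicate 3 lay among the wild-type libraries, and the ratio was 2.13 without it. mt-Rnr2 over mt-Rnr1 was 1.80, 2.17 and 1.30 against 2.01, 2.36 and 1.61 (exact permutation p = 0.6). Rn7sk and 7 other abundant nuclear noncoding RNAs are kept or lost with the way RNA is selected. They summed to 1.44 to 5.29 CPM in the wild-type libraries and 0.938 to 4.398 CPM in the knockout libraries. None of the 3 that could be tested passed, with SE of 0.69 to 0.85. Of these 3, Rn7s1 and Rn7s2 had nearly the same counts in every library. At such low counts these RNAs cannot show whether RNA selection differed between the groups. The study's methods and the labels name different kits, one for rRNA-depleted RNA and one for mRNA, so the share of rRNA in these libraries is not a level of rRNA in the cells, and the part of RNA selection was not tested.

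The tRNAs showed the largest changes. Of 22, 20 passed the low count filter and 17 of these were higher in the knockout libraries, with a median log2 fold change of 2.63 over those tested and a range of 0.60 to 4.99, and the groups of 17 did not overlap. Among all genes tested, 19.4% were called higher and 27.9% had knockout values above all wild-type values. Counts were low against those of the mRNAs, since all tRNAs together took 0.00454 to 0.0630% of a library. As for the rRNAs, these counts are not levels in the cells, and the part of RNA selection in them was not tested. 5 of them are shown with the anticodon in capitals, 5′ to 3′ on their own strand: the 3 heavy-strand tRNAs for phenylalanine, methionine and aspartate, which were among those with the largest changes, and the light-strand tRNAs for asparagine and proline, which changed less. mt-Tf is at chrM:1-68, mt-Tm at chrM:3845-3913 and mt-Td at chrM:6942-7011 on the plus strand, and mt-Tn at chrM:5089-5159 and mt-Tp at chrM:15356-15422 on the minus strand.

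mt-Tf: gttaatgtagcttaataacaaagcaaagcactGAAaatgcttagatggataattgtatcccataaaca
mt-Tm: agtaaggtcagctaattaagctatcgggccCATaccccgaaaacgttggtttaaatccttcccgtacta
mt-Td: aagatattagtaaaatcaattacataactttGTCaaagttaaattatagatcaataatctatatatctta
mt-Tn: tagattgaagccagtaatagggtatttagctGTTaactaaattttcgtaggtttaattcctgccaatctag
mt-Tp: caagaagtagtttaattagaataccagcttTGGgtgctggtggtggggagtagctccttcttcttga

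mt-Tm, which also provides the initiator of mitochondrial translation, was at 0.649, 0.692 and 0.603 CPM against 18.4, 34.6 and 8.97 CPM. That was the largest change of the tRNAs, with each knockout library far above the wild-type libraries (log2 fold change 4.99 ± 0.57, edgeR adjusted p = 0.00119). mt-Tl1, the tRNA with the most counts in 5 of 6 libraries (mt-Te had more in wild-type replicate 1), was at 10.6, 28.4 and 10.2 CPM against 189, 359.7 and 186 CPM (3.90 ± 0.52, adjusted p = 0.00203). It made up 16.3%, 35.7% and 23.3% of tRNA counts in the wild-type libraries and 48.0%, 52.6% and 49.2% in the knockout libraries. mt-Tf had 12, 4 and 3 counts in the wild-type libraries, all within the limit of detection, and 167, 296 and 107 counts in the knockout libraries, which makes it at least 16.3-fold higher (mean CPM of the knockout libraries over the mean limit in CPM of the wild-type libraries; adjusted p = 0.00431).

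The tRNAs of valine, aspartate and arginine, which punctuate the heavy-strand transcript beside mt-Rnr1, mt-Co2 and mt-Nd4l, behaved much like mt-Tm. mt-Tv was at 0.142, 0.309 and 0.108 CPM against 5.96, 7.40 and 2.35 CPM (log2 fold change 4.79 ± 0.69, adjusted p = 0.00277). mt-Td was at 0.396, 0.236 and 0.186 CPM against 7.02, 9.15 and 2.85 CPM (4.53 ± 0.63, adjusted p = 0.00234). mt-Tr was at 1.04, 0.368 and 0.325 CPM against 11.7, 16.1 and 7.08 CPM (4.32 ± 0.63, adjusted p = 0.00284). In all 3 the knockout libraries were apart from the wild-type libraries, and wild-type levels were near the limit of detection for mt-Tv and mt-Td.

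The tRNAs of glycine (mt-Tg, 3.26 ± 0.68, adjusted p = 0.0108), isoleucine (mt-Ti, 3.21 ± 0.66, adjusted p = 0.00987), threonine (mt-Tt, 2.84 ± 0.71, adjusted p = 0.0221) and tryptophan (mt-Tw, 1.72 ± 0.50, adjusted p = 0.0368) also rose, at levels between 0.158 and 11.3 CPM. mt-Tw is the least secure of these, since it passed in only 1 of the 6 fits that left out a library, with adjusted p up to 0.127. The call of mt-Tt was lost without knockout replicate 2 or wild-type replicate 1 or 3. The tRNA of lysine, mt-Tk, did not pass, with wild-type replicate 2 (4.32 CPM) above knockout replicate 3 (0.918, 4.32 and 0.851 against 7.37, 14.8 and 4.12 CPM; 2.11 ± 0.79, adjusted p = 0.0811). Without wild-type replicate 2 it passed, at 3.30.

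All 7 light-strand tRNAs that were tested were higher. mt-Tp, which lies beside the control region, was at 8.91, 15.6 and 8.18 CPM against 57.1, 61.7 and 47.0 CPM (log2 fold change 2.34 ± 0.31, adjusted p = 0.00199). The cluster of mt-Ta, mt-Tn, mt-Tc and mt-Ty (alanine, asparagine, cysteine and tyrosine), which surrounds the origin of light-strand replication, rose by 2.13 ± 0.40, 2.15 ± 0.35, 2.25 ± 0.36 and 2.42 ± 0.41, with adjusted p of 0.00723, 0.00417, 0.00372 and 0.00462. Their values were alike, as mt-Tn shows with 8.21, 5.48 and 4.24 CPM against 19.9, 32.9 and 26.9 CPM. mt-Te (glutamate), next to mt-Nd6, was at 13.8, 11.3 and 8.82 CPM against 25.0, 52.2 and 32.6 CPM (1.69 ± 0.34, adjusted p = 0.00916). mt-Tq (glutamine) had 5, 4 and 4 counts against 31, 80 and 23, at least 3.85-fold higher (adjusted p = 0.0153). Its call was lost without knockout replicate 2 or wild-type replicate 3, while the other 6 light-strand tRNAs kept theirs whichever library was left out.

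In a run of 3 adjacent tRNAs between mt-Nd4 and mt-Nd5 none was called higher, and their difference from the other tRNAs was not tested. mt-Th (histidine) had 76, 19 and 44 counts in the wild-type libraries and 46, 121 and 41 in the knockout libraries (log2 fold change 0.60 ± 0.73, adjusted p = 0.571). mt-Tl2, the other leucine tRNA, had 79, 19 and 42 counts against 59, 150 and 50 (0.91 ± 0.74, adjusted p = 0.388). The groups overlapped in both, and without knockout replicate 2 the value of mt-Th turned to -0.20. mt-Ts2 (serine) lies between them and had 59, 14 and 1 counts in the wild-type libraries and 1 count in each knockout library, and it was removed by the filter on low counts. Only when wild-type replicate 3 was left out did it enter the test and pass in the lower direction. mt-Ts1, the other serine tRNA, was at or under 8 counts in every library, within the limit of detection.

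**Figure D2:**
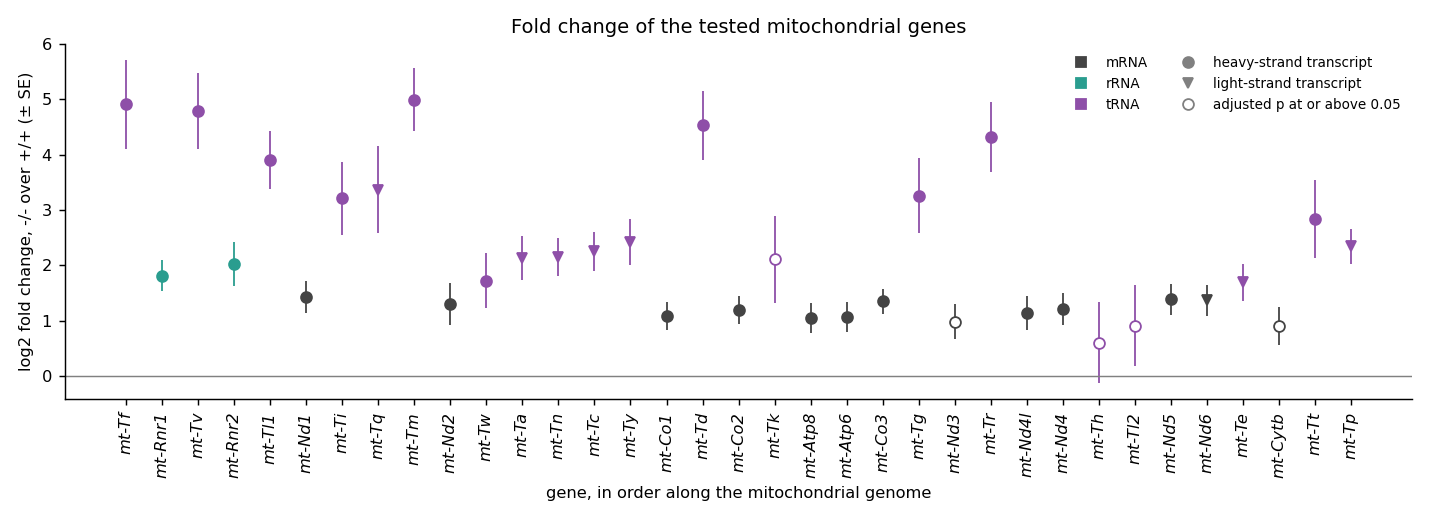
Log2 fold change (AE9a-Ddit4-/- over AE9a-Ddit4+/+, ± SE) of the 35 mitochondrial genes tested, in their order along the genome; colour gives the class, circles the heavy-strand and triangles the light-strand transcript, and open symbols an adjusted p at or above 0.05. The mRNAs lie between 0.90 and 1.43, the rRNAs at 1.81 and 2.03, the 7 light-strand tRNAs between 1.69 and 3.37, and the 13 heavy-strand tRNAs between 0.60 and 4.99.

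The tRNAs of both transcripts were summed and set against the mRNA pool, a split that was made after their values had been seen and is given without a test. Heavy-strand tRNAs had 3.81, 5.13 and 3.32 counts per 10000 mRNA counts in the wild-type libraries and 24.3, 27.9 and 19.1 in the knockout libraries. Light-strand tRNAs had 7.87, 5.75 and 5.93 against 12.9, 12.02 and 13.1. The ratio of the means was 5.82 for the heavy-strand and 1.95 for the light-strand tRNAs, and heavy-strand counts were 0.484 to 0.893 times the light-strand counts in the wild-type libraries and 1.46 to 2.32 times in the knockout libraries. mt-Tl1 made up much of the heavy-strand sum, which without it went from 8.44 ± 2.63 to 74.8 ± 40.4 CPM (SD, n = 3 each).

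**Figure D3:**
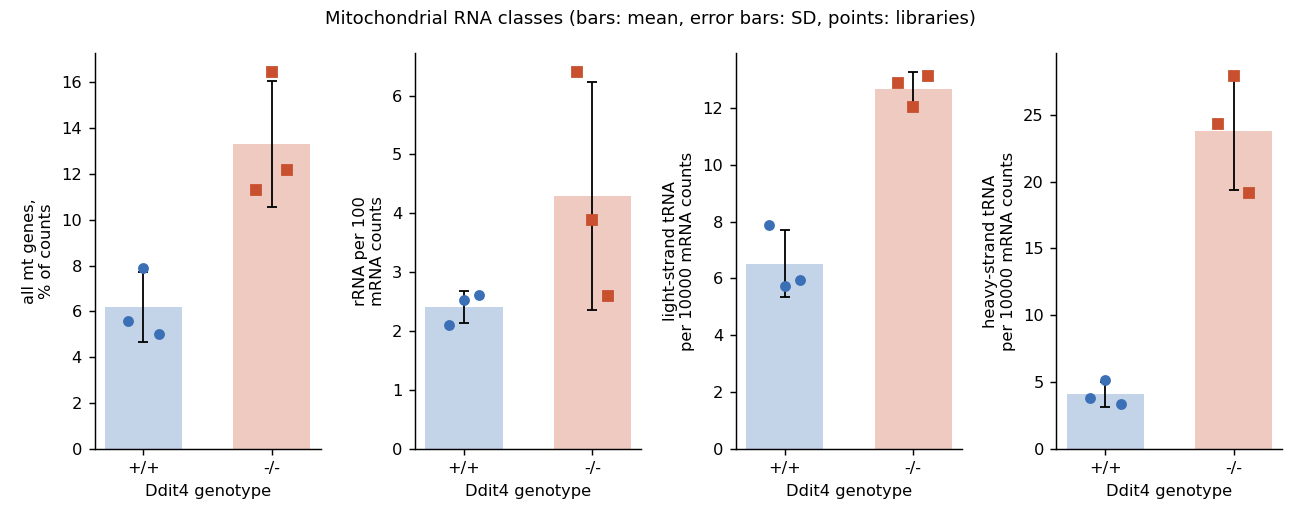
From left to right, the percent of library counts on all 37 mitochondrial genes, rRNA counts per 100 mRNA counts, and light-strand and heavy-strand tRNA counts per 10000 mRNA counts, by Ddit4 genotype; bars are means, error bars SD and points the 3 libraries of each group. The groups are apart in all panels but the second, where knockout replicate 3 (2.59) lies among the wild-type libraries (2.11 to 2.60).

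The rRNAs and tRNAs were also tested against the mRNAs by scaling all libraries to the mitochondrial mRNA pool, so that fold changes are relative to that pool. This scaling moved the median of all genes tested by -1.13 on the log2 scale, with 11.8% of genes called higher and 44.0% lower. It sets the mRNAs to about no change by construction, so their own values (-0.30 for mt-Cytb to 0.25 for mt-Nd1, none past the threshold) show only how they spread around their pool, and the test bears on the rRNAs and tRNAs. Neither rRNA passed (mt-Rnr1 0.68, adjusted p = 0.151; mt-Rnr2 0.92, adjusted p = 0.0579). Of the tRNAs, 9 were higher relative to the mRNA pool: mt-Tm (3.74), mt-Tv (3.70), mt-Tf (3.67), mt-Td (3.34), mt-Tr (3.12), mt-Tl1 (2.79), mt-Tg (2.01), mt-Ti (1.93) and, as the only light-strand member, mt-Tp (1.25). mt-Th (-0.76) and mt-Tl2 (-0.45) had negative values under this scaling, neither past the threshold.

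Copies of mitochondrial DNA in the nuclear genome limit these counts. By sequence, 17 annotated transcripts of the nuclear genome matched a mitochondrial gene at 90% identity or more over at least 100 bases, and the 7 with the highest identity, 99.71 to 100%, lie together on the minus strand within 4663 bases (chr1:24611535-24616197). Of these 7, 5 had no mismatch, Gm28438 differed from mt-Nd3 by T3C and Gm29216 from mt-Co1 by A1066T (the base of the mitochondrial gene first, positions counted from 1 at its first base). The start of mt-Nd3 (chrM:9459-9498, plus strand) and of its copy (chr1:24613080-24613119, minus strand) are shown with that base in capitals, because it is the only difference over the 345 aligned bases.

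mt-Nd3: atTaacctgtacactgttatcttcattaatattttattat
Gm28438: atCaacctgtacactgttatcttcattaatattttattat

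The copies carried nearly the counts of the genes they match. Gm10222 had 101 to 103% of the counts of mt-Nd4l, Gm10925 104 to 106% of mt-Atp6, Gm28437 98.2 to 101% of mt-Co3 and Gm28661 98.8 to 99.9% of mt-Co2. Gm28439, which matches only part of mt-Nd4, had 39.7 to 41.5% of its counts, and Gm29216, which matches part of mt-Co1, 8.53 to 13.2%. Gm28438 had 94.4%, 97.7% and 97.2% of the counts of mt-Nd3 in the wild-type libraries and 75.4%, 82.0% and 87.5% in the knockout libraries, without overlap. Reads that fit both places cannot be assigned, and whether the same reads were counted at both places is not given in the sources used here; if they were, they also entered the library totals at both, and the share of the copies repeats part of that of the mitochondrial genes. All 17 copies together took 1.83% ± 0.413 of all counts in wild-type and 3.97% ± 0.775 in knockout libraries (SD, n = 3 each).

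Of the 7 copies, 6 were called higher, with Gm28438 at 0.74 ± 0.32 (adjusted p = 0.124), and their log2 fold changes of 0.74 to 1.47 spanned those of their mitochondrial genes. The count of 6 was 3 without wild-type replicate 1 or knockout replicates 2 or 3, and 2 without wild-type replicate 3. Copies with more mismatches held few counts. Gm13340, at 97.6% identity to mt-Co1, had 0.0412 to 0.0677% of its counts, Gm13341 0.171 to 0.223% of the counts of mt-Co2, Gm13339 15 to 62 counts beside mt-Nd2 and Gm4076 2 to 18 counts beside mt-Nd5. The 6 mRNAs that were the longest match of none of the 7 copies (mt-Nd1, mt-Nd2, mt-Atp8, mt-Nd5, mt-Nd6 and mt-Cytb) had log2 fold changes of 0.90 to 1.43, the 7 others 0.98 to 1.35. Of these 6, mt-Atp8 shares 43 bases with mt-Atp6, which Gm10925 matches over 678 of 681 bases, so part of mt-Atp8 is matched too. Nuclear sequence outside annotated transcripts was not searched. Taking mitochondrial genes and their copies out of the library totals left the number of mRNAs called higher at 11.

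**Figure D4:**
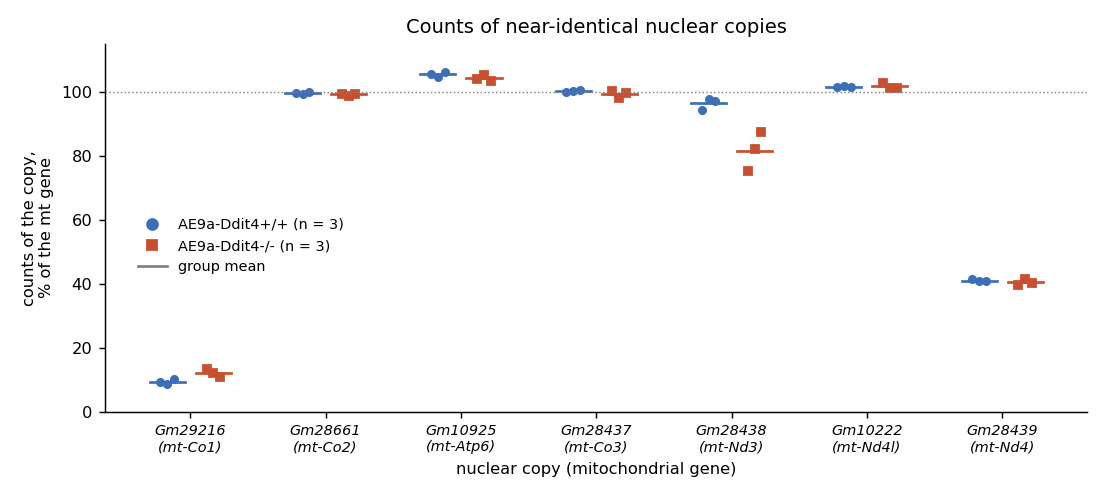
Counts of the 7 near-identical nuclear copies on chromosome 1 as a percent of the counts of the mitochondrial gene they match, in each library; circles are AE9a-Ddit4+/+ and squares AE9a-Ddit4-/- libraries, bars are group means, and the dotted line marks equal counts. 4 copies lie between 98.2 and 106%, while the copy of mt-Nd3 drops from 94.4 to 97.7% in wild-type to 75.4 to 87.5% in knockout libraries. The copy of mt-Co1 is at 8.53 to 10.2% in wild-type and 10.7 to 13.2% in knockout libraries.

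The nuclear partners of these genes did not rise with them. Of 78 nuclear subunits of complexes I to V, all tested, none was higher and 12 were lower, with a median log2 fold change of -0.44, beside 19.4% higher and 10.7% lower among all genes. The count of 12 was 2 without wild-type replicates 1 or 3, 3, 7 and 4 without knockout replicates 1, 2 and 3, and 17 without wild-type replicate 2. By complex, 5 of 37 subunits of complex I were lower (median -0.41), 0 of 4 of complex II (-0.31), 2 of 9 of complex III (-0.47), 1 of 11 of complex IV (-0.42) and 4 of 17 of the ATP synthase (-0.59). Cox6a1, a complex IV subunit, was at 408, 244 and 349 CPM against 57.5, 106 and 108 CPM (-1.88 ± 0.31, edgeR adjusted p = 0.00459). Ndufa5 of complex I was at 19.6, 12.6 and 24.4 CPM against 5.54, 6.88 and 6.998 CPM (-1.54 ± 0.33, adjusted p = 0.0110), Ndufa1 changed by -1.07 (adjusted p = 0.0196) and Ndufs5 went from 24.6 ± 5.97 to 12.3 ± 3.10 CPM (SD, n = 3 each; edgeR adjusted p = 0.0397). Of the ATP synthase, Atp5h changed by -1.04 (adjusted p = 0.0177), Atp5e by -0.87 (adjusted p = 0.0308) and Atp5j2 by -0.87 (adjusted p = 0.0384), and of complex III, Uqcrfs1 by -0.56 (adjusted p = 0.0478) and Uqcrh by -0.51 (adjusted p = 0.0464). In each of these the knockout libraries lay below the wild-type libraries.

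The balance of mitochondrial to nuclear transcripts therefore differed between the groups for each complex that has both. The summed CPM of the mitochondrial mRNAs over that of the nuclear mRNAs of complex IV was 15.7, 31.2 and 15.1 in the wild-type libraries and 78.0, 67.5 and 54.2 in the knockout libraries. For complex I it was 6.91, 10.2 and 5.97 against 21.1, 30.2 and 18.4. For complex III it was 5.19, 7.68 and 3.97 against 11.1, 16.8 and 10.8, and for the ATP synthase 1.44, 2.85 and 1.61 against 5.62, 5.91 and 4.98. The groups did not overlap in any of the 4, with ratios of the means of 3.22, 3.02, 2.30 and 2.79 (exact permutation p = 0.1 each). These ratios do not depend on the library total.

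**Figure D5:**
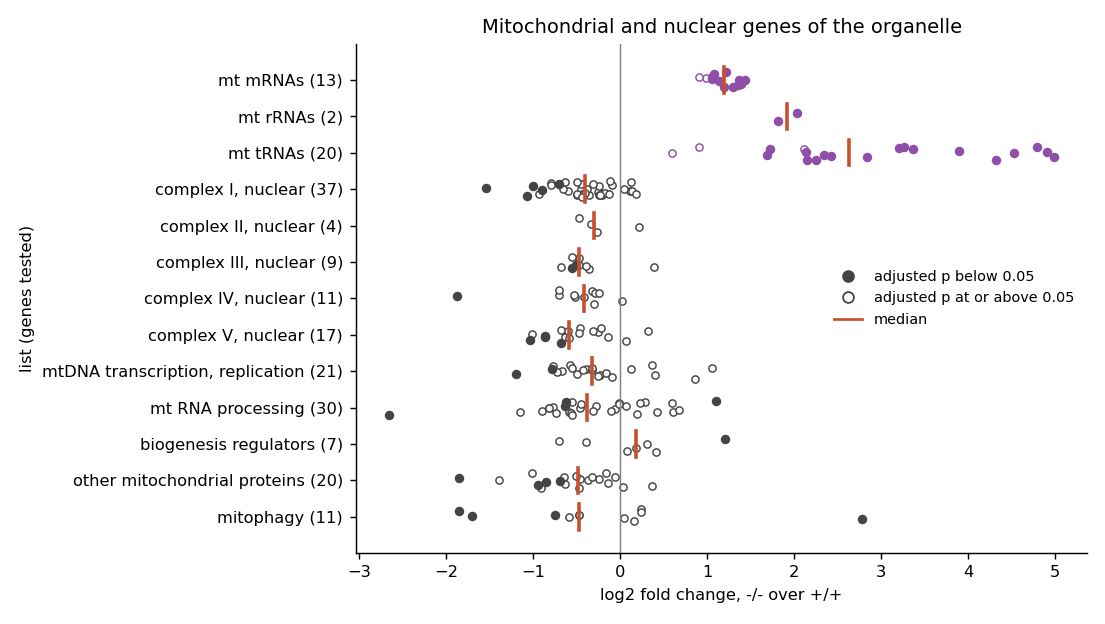
Log2 fold change (AE9a-Ddit4-/- over AE9a-Ddit4+/+) of each gene tested in the 3 mitochondrial classes and in 10 lists of nuclear genes, with the number tested in brackets; filled points have an adjusted p below 0.05 and the line is the median of the list. The medians of the mitochondrial classes lie at 1.19, 1.92 and 2.63, those of the nuclear lists between -0.59 and 0.18.

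Of 51 nuclear genes for making, processing and keeping mitochondrial RNA and DNA, 1 was called higher and 5 lower, beside 19.4% higher and 10.7% lower among all genes tested, so the share called lower was near the background. The count of 5 was 2 without wild-type replicate 1 or 3 or knockout replicate 3, 3 without knockout replicate 1 or 2, and 6 without wild-type replicate 2. Of 21 genes for transcription and replication of mitochondrial DNA none was higher and 2 were lower (median -0.33): Polg, the mitochondrial DNA polymerase (86.7, 90.4 and 83.0 against 56.5, 48.7 and 46.0 CPM; -0.78 ± 0.17, adjusted p = 0.0133), and Mterf1a (-1.20, adjusted p = 0.0383), a member of the transcription termination factor family. Polrmt, the mitochondrial RNA polymerase, was at 27.0, 27.3 and 27.0 against 20.8, 18.7 and 30.0 (29.95) CPM (-0.23 ± 0.24, adjusted p = 0.522). Tfam, which packages mitochondrial DNA and opens its promoters, was at 80.4, 53.8 and 61.5 against 36.3, 55.3 and 46.3 CPM (-0.50 ± 0.24, adjusted p = 0.154). Neither the promoter factor Tfb2m (-0.39 ± 0.19, adjusted p = 0.168) nor the elongation factor Tefm (-0.43 ± 0.55, adjusted p = 0.585) passed.

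Of 30 genes for the cutting, modification, stability and decay of mitochondrial RNA, 1 was higher and 3 were lower (median -0.38). The higher one was Trmt10c, a subunit of the enzyme that cuts the 5′ ends of mitochondrial tRNAs out of the precursor, at 36.2, 38.2 and 54.4 CPM against 104, 113 and 60.1 CPM (1.10 ± 0.29, adjusted p = 0.0267). Rexo2, an exonuclease for very short RNAs, was at 118, 42.7 and 92.9 CPM against 5.60, 16.3 and 18.2 CPM (-2.66 ± 0.54, adjusted p = 0.00946). Grsf1, an RNA-binding protein of mitochondrial RNA granules, changed by -0.63 (adjusted p = 0.0238) and Ptcd1 by -0.64 (adjusted p = 0.0415). Lrpprc and Slirp, which form a complex that stabilises mitochondrial mRNAs, did not pass (0.42 ± 0.20, adjusted p = 0.144, and -1.15 ± 0.39, adjusted p = 0.0610), nor did the poly(A) polymerase Mtpap (-0.06 ± 0.17, adjusted p = 0.818). The call of Trmt10c was lost when knockout replicate 1 or 2 or wild-type replicate 1 or 2 was left out.

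Regulators of mitochondrial biogenesis numbered 8, of which 7 were tested and 1 was higher, Gabpb1, a subunit of nuclear respiratory factor GABP (21.2, 23.5 and 33.2 against 61.2, 79.2 and 39.2 CPM; 1.20 ± 0.31, adjusted p = 0.0245). Ppargc1a was at or under 9 counts in each library, within the limit of detection. Of 20 genes for other abundant mitochondrial proteins, used as a gauge of the organelle's nuclear transcripts, none was higher and 4 were lower (median -0.49), led by citrate synthase Cs (392, 291 and 299 against 76.9, 85.6 and 108 CPM; -1.86 ± 0.22, adjusted p = 0.00122) and the fusion proteins Mfn2 (-0.95, adjusted p = 0.00638) and Mfn1 (-0.86, adjusted p = 0.0121). Of 13 mitophagy genes, which serve the removal of mitochondria, 11 were tested, with 1 higher and 3 lower. The background for each list in this paragraph was 19.4% higher and 10.7% lower among all genes tested. Bnip3 was higher (3.81, 7.44 and 5.20 against 45.5, 25.4 and 41.9 CPM; 2.78 ± 0.36, adjusted p = 0.00191), while Optn (-1.86, adjusted p = 0.00304), Bcl2l13 (-1.71, adjusted p = 0.00212) and Bnip3l (-0.75, adjusted p = 0.0132) were lower. Erythroid cells remove their mitochondria as they mature, and 8 of 9 erythroid markers were lower, as given above. The part of these cells in the values of this paragraph was not tested.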

How the data were processed

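RNA was sequenced from 6 libraries of AE9a leukemia cells, 3 per Ddit4 genotype, grouped by their titles. The authors deposited 1 table of gene counts, whole numbers that had not been scaled. Per the labels the genome build was GRCm38 (mm10); the aligner, counting tool and use of strand are not given in the sources used here. Library totals were 62141558 to 72717681. The limit of 12 counts allows for counting error alone, because PCR copies of a molecule could not be recognised.

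All 55421 genes entered the fit. Those passing filterByExpr (18375) were tested in edgeR 4.0.16 with glmQLFit and glmQLFTest (R 4.3.3; TMM factors 0.921 to 1.05, robust, genotype as the only term), with Benjamini-Hochberg adjustment over all and a threshold of 0.05. SE was the absolute log2 fold change over the square root of F. The script was tested on simulated data. CPM used TMM-scaled totals. Shares and ratios were compared by two-sided exact permutation tests (scipy 1.17.1). Positions came from GENCODE on GRCm38. Nuclear copies were found with BLAST 2.17.0 among its transcripts (at least 90% identity over 100 bases).

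The members and the gene lists were chosen with earlier results of these data known. Named were all mitochondrial mRNAs, rRNAs and detectable tRNAs, Ddit4, 8 factors whatever their values (Polrmt, Tfam, Tfb2m, Tefm, Lrpprc, Slirp, Mtpap and Ppargc1a), nuclear copies with more than 12 counts in a library and, per nuclear list and direction, up to 3 genes with the largest change past the threshold, at least 10 counts in every library and groups that did not overlap. mt-Ts1, Xist and 2 marker genes at 0 were named outside this rule, after their values were seen. So were the marker genes named for the leukemic progenitor, the T and NK and the stromal and endothelial sums. 1 list of marker genes is not reported here. Alternatives were other scalings, filters, DESeq2 1.42.0, counts divided by 4, a threshold of 0.01, a block for replicate number and leaving out each library.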

Additional observations from a re-analysis of the deposited data

How the results depend on the processing

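Counts of calls are given as mRNAs, rRNAs and tRNAs higher, nuclear subunits of complexes I to V lower, and nuclear genes of mitochondrial expression higher and lower (11, 2, 17, 12, 1 and 5 as reported), then nuclear copies higher (6). Scaled to the mitochondrial mRNA pool they were 0, 0, 9, 77, 0 and 38, then 0. At a threshold of 0.01 they were 4, 2, 13, 1, 0 and 1, then 2. With DESeq2, 13 mRNAs, 2 rRNAs and 18 tRNAs were higher, nuclear subunits lower were 19, and genes of mitochondrial expression 2 higher and 9 lower. With library totals alone 21 nuclear subunits and 8 genes of mitochondrial expression were lower, and with no filter on low counts 3 of the latter. Over the fits that left out 1 library each, the counts ranged from 4 to 11 mRNAs, 14 to 17 tRNAs, 2 to 17 nuclear subunits, 0 to 1 and 2 to 6 genes of mitochondrial expression, and 2 to 6 nuclear copies, while both rRNAs were called each time; a mitochondrial gene called lower appeared 0 or 1 times, mt-Ts2 without wild-type replicate 3. Nuclear copies were 3 without knockout replicates 2 or 3 or wild-type replicate 1, and 2 without wild-type replicate 3. With the mitochondrial mRNA pool as the scale, the log2 fold change reversed for mt-Co1 (-0.05), mt-Atp8 (-0.13), mt-Atp6 (-0.09), mt-Nd3 (-0.26), mt-Nd4l (-0.06), mt-Cytb (-0.30), mt-Th (-0.76), mt-Tl2 (-0.45), Lrpprc (-0.75), Trmt10c (-0.11), Gabpb1 (-0.03), Gm10222 (-0.05), Gm10925 (-0.11) and Gm28438 (-0.50); this follows from the scale, which sets the mRNA pool to no change. mt-Th also reversed without knockout replicate 2 (-0.20, with 1.19 as the highest value without 1 library) and Mtpap (0.01) under a filter of 10 counts per library; the cause was not tested. The ratio of the mitochondrial share of counts was 1.90 to 2.51 over the fits without 1 library. The share of complex IV in the mRNAs, 0.990 as a ratio of the means, was 0.961 to 1.03 without 1 library and 1.01 with nuclear copies added to their genes. Totals without mitochondrial genes and copies, an alternative chosen after seeing the data, left all 7 counts as reported.

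With a replicate block, 10 mRNAs, 2 rRNAs, 16 tRNAs and 6 nuclear copies were called higher, 1 nuclear subunit lower, and 0 genes of mitochondrial expression higher and 0 lower. Deviations of same-numbered libraries from their group means correlated at -0.259, -0.304 and -0.0345, so the numbers were not taken as pairing the libraries. Among mitochondrial genes, mt-Nd4l, mt-Tq and mt-Tw lost their call with the block and mt-Tk gained one.

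Genes with few counts limit what can be seen: mt-Ts1 lay within 12 counts in every library, as did mt-Tf and mt-Tq in wild type.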
